A study of Arabidopsis thaliana with 4 samples.

Results

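Extensins are structural proteins of the plant cell wall. Their transcripts were measured at 10 loci among the 37686 genes of an Arabidopsis thaliana leaf explant dataset. The loci are EXT3 (AT1G21310), EXT4 (AT1G76930), HRGP1 (AT3G54590), AT3G54580, EXT6 (AT2G24980), AT3G28550, EXT10 (AT5G06640), AT5G06630, EXT12 (AT4G13390) and AT2G43150. They were chosen by locus with their TPM values in these same 4 libraries known, so their levels and differences are described here without a test. TPM is a level per transcript length, scaled to the same total in every library. The RefSeq annotation names all 10 as extensins, hydroxyproline-rich glycoproteins or proline-rich extensin-like proteins.

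Both groups consisted of wild-type Col-0 plants, grown for 12 days at 22 °C with 16 h of light and 8 h of darkness, whose leaves were detached with part of the petiole. In the 2-day group the explants were then kept for 2 days in darkness at the same temperature on sucrose-containing B5, a standard medium for plant tissue. In the time 0 group no culture took place. The material was the cut region with its petiole piece and adjoining tissue, and each group had 2 libraries. Time since cutting, culture time, medium, darkness and age differ between the groups together and cannot be told apart. Nothing says that the libraries came from separate cultures, so p-values reflect the variation among these 4 libraries alone, and that variation may be technical. Sequencing depth is unknown, because TPM keeps no read number.

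Extensins carry many short repeats of serine followed by prolines. Most of the prolines are hydroxylated in the endoplasmic reticulum by prolyl 4-hydroxylases. Arabinosyltransferases then add arabinose to the hydroxyprolines, and a galactosyltransferase adds galactose to the serine. In the wall, peroxidases join tyrosines of extensin molecules into a network, for which pairs of tyrosines separated by a single residue are a known cross-link site. EXT3, also called RSH, is required for a correct new wall in dividing embryo cells, and several other classical extensins are known from root hairs.

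The repeats are visible in the coding sequences. The following stretches of 90 bases (30 codons) are those richest in runs of a serine codon with 3 or more proline codons, which are in capitals, whole or where the stretch ends inside a run. They are shown for the 3 loci with high levels after culture and for HRGP1 and AT3G28550, near-zero loci with more repeats. They were read by locus from the RefSeq annotation of TAIR10.1, 5′ to 3′ on the coding strand.
EXT3: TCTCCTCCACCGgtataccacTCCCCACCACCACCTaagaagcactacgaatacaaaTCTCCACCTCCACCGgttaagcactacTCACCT
EXT4: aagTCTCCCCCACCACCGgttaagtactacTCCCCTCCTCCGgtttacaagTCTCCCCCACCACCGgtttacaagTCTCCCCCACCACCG
AT2G43150: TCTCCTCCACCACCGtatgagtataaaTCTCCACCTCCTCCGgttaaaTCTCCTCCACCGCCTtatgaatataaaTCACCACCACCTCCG
HRGP1: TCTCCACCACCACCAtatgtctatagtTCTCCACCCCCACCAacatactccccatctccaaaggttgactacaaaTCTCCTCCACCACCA
AT3G28550: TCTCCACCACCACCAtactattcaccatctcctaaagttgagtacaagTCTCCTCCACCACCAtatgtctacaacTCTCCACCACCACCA

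Transcripts of 3 extensins were abundant after culture, and the other 7 were at or near 0 in every library. EXT4 stood at 4142.43 and 2818.96 TPM in the 2-day libraries, against 3.45 and 2.71 TPM in the time 0 libraries. EXT3 stood at 3058.15 and 2408.71 TPM in the 2-day libraries, against 1.38 and 1.06 TPM in the time 0 libraries. AT2G43150, a short proline-rich extensin-like gene, stood at 723.09 and 552.58 TPM in the 2-day libraries, against 35.54 and 35.07 TPM in the time 0 libraries. For each of these 3 genes both 2-day values lay above both time 0 values. The smallest ratio between the groups was that of AT2G43150. In bulk tissue fewer cells of a type and less RNA per cell cannot be told apart, which holds for every level given here.

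**Figure D1:**
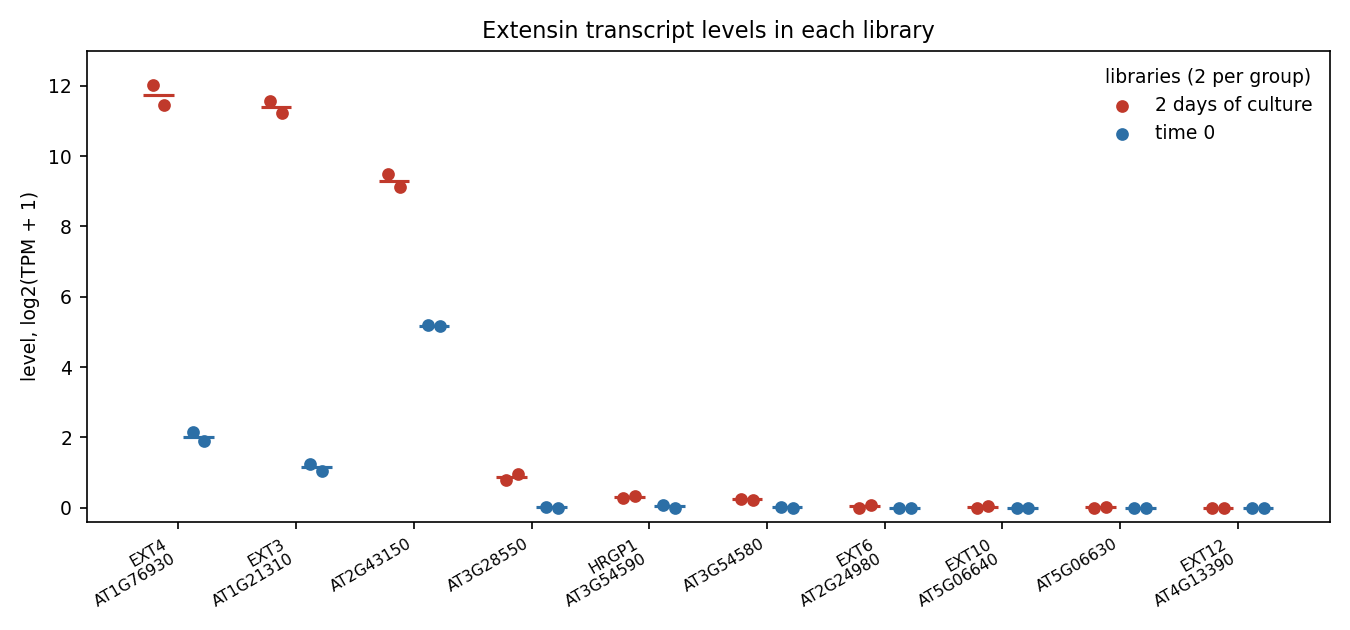
Level of each of the 10 extensin loci in every library, as log2(TPM + 1), with 2-day libraries to the left of time 0 libraries; points are libraries and horizontal lines are group means (n = 2 each). EXT4, EXT3 and AT2G43150 have 2-day means of 3481, 2733 and 637.8 TPM, whereas no library holds more than 0.95 TPM of any other locus.

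On the log2(TPM + 1) scale the difference between 2 days and time 0 was 10.26 ± 0.14 (SE) for EXT3, and it ran from 9.98 to 10.54 over the 4 pairs of libraries. For EXT4 it was 9.72 ± 0.20 (SE), from 9.31 to 10.13. For AT2G43150 it was 4.12 ± 0.13 (SE), from 3.92 to 4.33. As ratios of mean TPM these are 2241-fold for EXT3, 1130-fold for EXT4 and 18.1-fold for AT2G43150. The ratios of EXT3 and EXT4 rest on time 0 means of 1.22 ± 0.226 and 3.08 ± 0.523 TPM (SD, n = 2), whereas AT2G43150 stood at 35.3 ± 0.332 TPM.

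The order of the 3 genes differed between the groups. At 2 days EXT4 averaged 3481 ± 936 TPM, EXT3 2733 ± 459 TPM and AT2G43150 637.8 ± 121 TPM (SD, n = 2). EXT4 was above EXT3 in each 2-day library, but the ranges of these neighbours overlapped, and AT2G43150 lay below both. At time 0 AT2G43150 was highest, EXT4 next and EXT3 lowest, with no overlap. AT2G43150 held 9.12% and 9.56% of the summed TPM of the 10 loci in the 2-day libraries, against 87.9% and 90.3% in the time 0 libraries. EXT4 held 52.3% and 48.8% in the 2-day libraries, against 8.53% and 6.98% in the time 0 libraries. The extensin transcripts present at time 0 were thus mostly those of AT2G43150.

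Summed over the 10 loci, extensins took 0.792% and 0.578% of the total TPM in the 2-day libraries, against 0.00404% and 0.00388% in the time 0 libraries. The group means were 0.685% ± 0.151 at 2 days and 0.00396% ± 0.000113 at time 0 (SD, n = 2). Ordered by TPM among all 37686 genes, EXT4 ranked 10 and 17 in the 2-day libraries, against 15363 and 16109 in the time 0 libraries. EXT3 ranked 16 and 22 in the 2-day libraries, against 17548 and 18156 in the time 0 libraries. AT2G43150 ranked 154 and 241 in the 2-day libraries, against 4820 and 4969 in the time 0 libraries.

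The 2-day libraries differed from each other in the same direction for all 3 genes. The level in replicate 1 was 1.27 times that in replicate 2 for EXT3, 1.47 times for EXT4 and 1.31 times for AT2G43150. Among the 256 genes with at least 500 TPM in both 2-day libraries, the median of this ratio was 0.966. The ratios of EXT3, EXT4 and AT2G43150 were higher than those of 96.1%, 98% and 96.9% of these genes. These ratios between libraries are far smaller than the ratios between the groups. At time 0 the corresponding ratio was 1.3 for EXT3, 1.27 for EXT4 and 1.01 for AT2G43150.

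Of the 7 low loci, AT3G28550 was highest, at 0.71 and 0.95 TPM in the 2-day libraries, against 0.01 TPM and a listing at 0 in the time 0 libraries. HRGP1 stood at 0.2 and 0.27 TPM in the 2-day libraries, against 0.05 TPM and 0 in the time 0 libraries. Its neighbour AT3G54580 stood at 0.19 and 0.16 TPM in the 2-day libraries, against 0.01 TPM and 0 in the time 0 libraries. For these 3 loci both 2-day values were above both time 0 values, all of them below 1 TPM. EXT6, EXT10 and AT5G06630 were listed at 0 in 3 libraries and reached 0.05, 0.04 and 0.02 TPM in 2-day replicate 2. EXT12 was listed at 0 in all 4 libraries. With depth unknown, a listing at 0 cannot be given a detection limit.

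A limma fit across the table tested 19078 genes, those averaging 1 TPM or more, of which 68.8% were called at an adjusted p below 0.05, 39.2% higher and 29.5% lower at 2 days. Of the 10 extensin loci 3 passed the expression limit, EXT3, EXT4 and AT2G43150, and all 3 were called higher. The loci were picked from this contrast and the limit itself depends on the 2-day level, so nothing is read from that count. The median log2 difference of all tested genes was 0.09. Quantile normalization moved that median to -0.06, and higher genes then made up 47.0% of the calls, against 57.0% without it. The differences of the 3 extensins are many times larger than this shift.

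**Figure D2:**
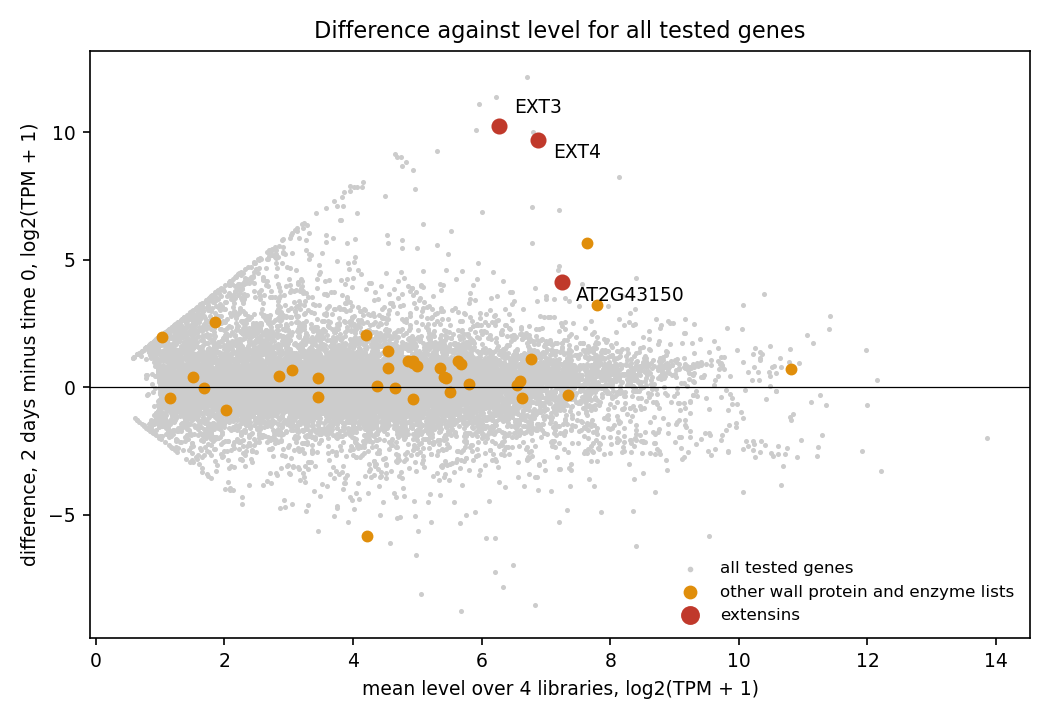
Difference between 2 days and time 0 against mean level, both as log2(TPM + 1), for 19078 tested genes (grey), 36 loci of related wall protein and enzyme lists (orange) and 3 extensins (red). EXT3 and EXT4 lie at 10.26 and 9.72 and AT2G43150 at 4.12, while the median of all genes is 0.09.

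Among tested genes outside the 10 loci, the 3 whose values over the 4 libraries were closest to EXT3, by Euclidean distance of log2(TPM + 1), were AZI1 (AT4G12470, distance 0.87), AT4G12490 (1.1) and AT2G43590 (1.2). AZI1 encodes a lipid-transfer-like protein of systemic immunity, AT4G12490 is annotated as a lipid-transfer family protein and AT2G43590 as a chitinase family protein. Closest to EXT4 were AT2G43590 (0.74), AZI1 (2.06) and EARLI1 (AT4G12480, 2.2), another lipid-transfer-like protein. AT2G43590 stood at 3134.8 and 4065.8 TPM in the 2-day libraries, against 2.6 and 2.39 TPM in the time 0 libraries. With 4 libraries in 2 groups, such likeness describes the level in each group and little else.

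The 3 abundant transcripts were distinct from the rest of the family in exact 50-base windows. None of the 50-base windows of EXT3, EXT4 or AT2G43150 transcripts occurred in the same orientation in a transcript of another gene. Near matches were not searched, so this does not show that every read could be assigned. Among the 10 loci, HRGP1 shared 2.8% of its windows with AT3G54580, which shared 1% of its own with AT3G28550. EXT6 shared 3.9% of its windows with AT5G06630. Counting genes outside the 10 loci too, 4.9% of EXT6 windows and 0.3% of EXT10 windows were shared. The separate levels of these low loci therefore depend on how reads were divided. The summed TPM of HRGP1, AT3G54580 and AT3G28550, which depends less on that division but is not free of it since their lengths differ, was 1.10 and 1.38 in the 2-day libraries, against 0.07 and 0 in the time 0 libraries.

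The level of EXT3 has a separate limit. Of its windows, 23.9% also lie in the oppositely oriented gene AT1G21313, and whether strand was used in counting is not given in the sources used here. AT1G21313 stood at 138.99 and 95.13 TPM in the 2-day libraries and was listed at 0 in both time 0 libraries. These levels are 4.54% and 3.95% of the EXT3 level in the same 2-day libraries. Without strand, reads of the 2 genes cannot be told apart in the shared part.

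The 10 loci differ in how much of their coding sequence is repeat. Over the longest annotated coding sequence of each, proline codons made up 22.5% of EXT4, 36.7% of EXT3 and 42.5% of AT2G43150, and between 35.4% and 38.3% of the other 7 loci. Runs of a serine codon with 3 or more proline codons numbered 41 in EXT3 (431 codons), 17 in EXT4 (293 codons) and 22 in AT2G43150 (212 codons). AT3G28550 held the most of any coding sequence in the annotation, 73 in 1024 codons. At 10.38 runs per 100 codons AT2G43150 was the densest of the 10 loci, EXT3 followed at 9.51, and the others ranged from 5.13 to 7.31.

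Pairs of tyrosine codons separated by 1 codon separated EXT4 from the rest. EXT4 held 1 such pair, EXT3 16 and AT2G43150 12, and the low loci from 13 in EXT12 to 35 in AT3G28550. Of 27539 coding sequences, 2.52% had at least 1 serine-proline run and 28.5% at least 1 tyrosine pair. Only 18 (0.065%) had at least 5 of each, and these included 9 of the 10 loci, all but EXT4. The other 9 of the 18 were LRX1, a chimeric leucine-rich repeat extensin, and 8 genes annotated as proline-rich extensin-like. Of these 18 genes 2, EXT3 and AT2G43150, exceeded 2 TPM in any library, and the highest value of the other 16 was 1.01 TPM. The loci with the most repeats were not those with the highest levels.

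**Figure D3:**
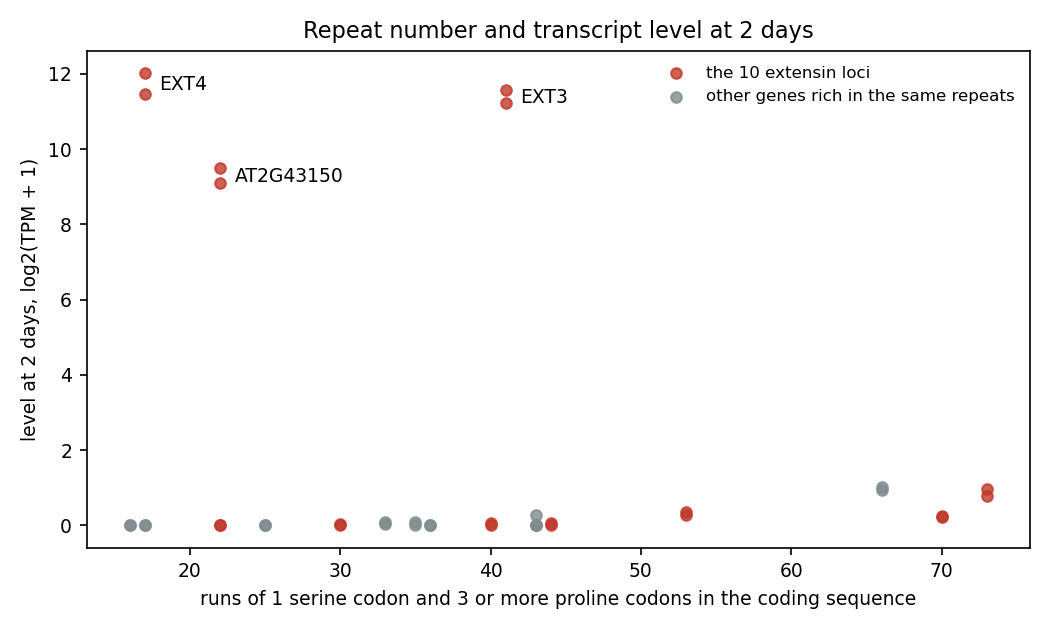
Level at 2 days as log2(TPM + 1), 1 point per library, against the number of runs of a serine codon with 3 or more proline codons, for the 10 extensin loci (red) and 9 other genes with at least 5 such runs and 5 tyrosine pairs (grey). EXT4 (17 runs), AT2G43150 (22) and EXT3 (41) are high, and the loci with the most runs, such as AT3G28550 (73), are at or below 1.01 TPM.

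Related genes were taken from 7 lists of wall proteins and of enzymes that act on extensins. They held 65 loci, of which 36 were tested, 20 were higher at 2 days (55.6%, against 39.2% of all tested genes), 5 lower (13.9%, against 29.5%) and 11 did not pass. For 20 of the 65 the annotation gives only a broader family, and these are named by locus alone. Over the other 45, 23 were tested, of which 13 were called higher, 3 lower and 7 neither. The calls are from limma at an adjusted p below 0.05 over all 19078 genes. The lists were chosen with earlier results of these data known. Their shares, here and in the paragraphs below, are therefore description, and no excess over all genes is read from them. Over those 45 the number of lower genes was 5 without 2-day replicate 1 and 1 without time 0 replicate 2. A gene near 0 at time 0 was tested only where it was higher at 2 days. None of the 9 other extensins reached the limit. AT1G23720 was highest among them, at 1.01 and 0.93 TPM in the 2-day libraries, against 0.01 TPM and 0 in the time 0 libraries.

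Of the leucine-rich repeat extensins, chimeric wall proteins with a leucine-rich repeat domain and an extensin domain, LRX2 (AT1G62440) was higher at 47.12 and 29.47 TPM in the 2-day libraries, against 14.02 and 12.27 TPM in the time 0 libraries (limma adjusted p = 0.00293). LRX3 (AT4G13340) stood at 105.8 ± 14.4 TPM at 2 days and 87.59 ± 2.88 TPM at time 0 (SD, n = 2) and did not pass (limma adjusted p = 0.0658), though it did with replicate number as a block (0.0357) and without 2-day replicate 2 (0.0126). LRX1, known from root hairs, was listed at 0 in all 4 libraries. The other 8 loci of this list are annotated only as a leucine-rich repeat family. Over the list 3 of 8 tested loci were higher (37.5%, against 39.2% of all tested genes), 1 was lower (12.5%, against 29.5%) and 4 did not pass. The median log2 difference was 0.12, against 0.09 for all tested genes. The lower one was AT2G15880, at 1.63 and 1.32 TPM in the 2-day libraries, against 143.12 and 136.57 TPM in the time 0 libraries (log2 difference -5.83, limma adjusted p = 5.49e-06). AT3G24480 rose to 161.1 ± 27.6 TPM at 2 days, against 72.96 ± 0.99 TPM at time 0, and AT3G22800 rose to 3.08 ± 0.297 TPM at 2 days, against 0.03 ± 0.0141 TPM at time 0.

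Of 15 extensin-like receptor kinases, membrane kinases with a proline-rich outer part, 6 were tested. Of these 1 was called higher (16.7%, against 39.2% of all tested genes), 1 lower (16.7%, against 29.5%) and 4 did not pass. PERK14 (AT4G32710) rose to 9.595 ± 1.25 TPM at 2 days, against 5.54 ± 0.438 TPM at time 0. PERK9 (AT1G68690) stood at 8.66 ± 1.67 TPM at 2 days and 11.53 ± 0.297 TPM at time 0, and its call (limma adjusted p = 0.05 after rounding) was lost under 6 alternatives.

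Over the list of prolyl 4-hydroxylases, 7 of 9 tested loci were higher (77.8%, against 39.2% of all tested genes), 1 was lower and 1 did not pass, with a median log2 difference of 0.77, against 0.09 for all tested genes. Of these, 3 are annotated by name and all 3 were higher, and the other 6 are annotated only as oxoglutarate- and iron-dependent oxygenases. P4H5 (AT2G17720), known from extensins of root hairs, rose to 70.13 ± 1.92 TPM at 2 days, against 33.7 ± 1.21 TPM at time 0 (limma adjusted p = 7.89e-05). P4H2 (AT3G06300) rose to 41.69 ± 0.255 TPM at 2 days, against 20.83 ± 0.863 TPM at time 0 (limma adjusted p = 0.000115). AT-P4H-1 (AT2G43080) rose less, to 48.55 ± 1.58 TPM at 2 days, against 37.01 ± 1.26 TPM at time 0. P4H13 (AT2G23096) stood at 0.1 and 0.09 TPM in the 2-day libraries, against 0.13 TPM in each time 0 library. Of the loci without a name, AT3G28480 rose to 42.84 ± 0.276 TPM at 2 days, against 20.44 ± 0.247 TPM at time 0. AT4G33910 was the lower one, at 24.91 ± 0.912 TPM at 2 days and 34.96 ± 0.0424 TPM at time 0 (limma adjusted p = 0.00136). AT5G66060 stood at 57.65 ± 1.34 TPM at 2 days and 52 ± 2.34 TPM at time 0 and did not pass (limma adjusted p = 0.0768). The call of AT4G25600 as higher (log2 difference 0.37, limma adjusted p = 0.0226) was lost under 6 alternatives, with p reaching 0.134.

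Over the list of extensin glycosyltransferases, 6 of 9 tested loci were higher (66.7%, against 39.2% of all tested genes), 2 lower (22.2%, against 29.5%) and 1 did not pass, with a median log2 difference of 0.74. One of them, AT3G57630, is annotated only as an exostosin family protein and rose to 36.81 ± 1.72 TPM at 2 days, against 7.99 ± 0.17 TPM at time 0 (limma adjusted p = 1.9e-05). XEG113 (AT2G35610), an arabinosyltransferase, rose to 52.12 ± 2.1 TPM at 2 days, against 30.77 ± 1.41 TPM at time 0 (limma adjusted p = 0.000354). AT3G01720, annotated as the serine galactosyltransferase, rose to 41.78 ± 2.25 TPM at 2 days, against 22.88 ± 0.445 TPM at time 0. RRA3 (AT1G19360), an arabinosyltransferase of extensins, rose to 40.23 ± 1.15 TPM at 2 days, against 19.31 ± 0.0141 TPM at time 0, but 40.2% of its windows lie opposite another gene. Its relative RRA1 (AT1G75120) fell to 2.025 ± 0.191 TPM at 2 days, against 4.54 ± 0.0566 TPM at time 0 (limma adjusted p = 0.00158). RRA2 (AT1G75110) stood at 2.29 ± 0.354 TPM at 2 days and 1.485 ± 0.00707 TPM at time 0 and did not pass, though it did without 2-day replicate 1 (limma adjusted p = 0.0435) or replicate 2 (0.0157). The hydroxyproline O-arabinosyltransferase-like genes went in different directions. AT2G25260 rose to 9.04 and 6.59 TPM in the 2-day libraries, against 0.51 and 0.48 TPM in the time 0 libraries, and AT5G13500 rose with a log2 difference of 0.40. AT5G25265, with 16.7% opposite-strand overlap, fell to 85.53 ± 7.06 TPM at 2 days, against 113.4 ± 3.95 TPM at time 0 (limma adjusted p = 0.0055, and 0.0543 without time 0 replicate 2).

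**Figure D4:**
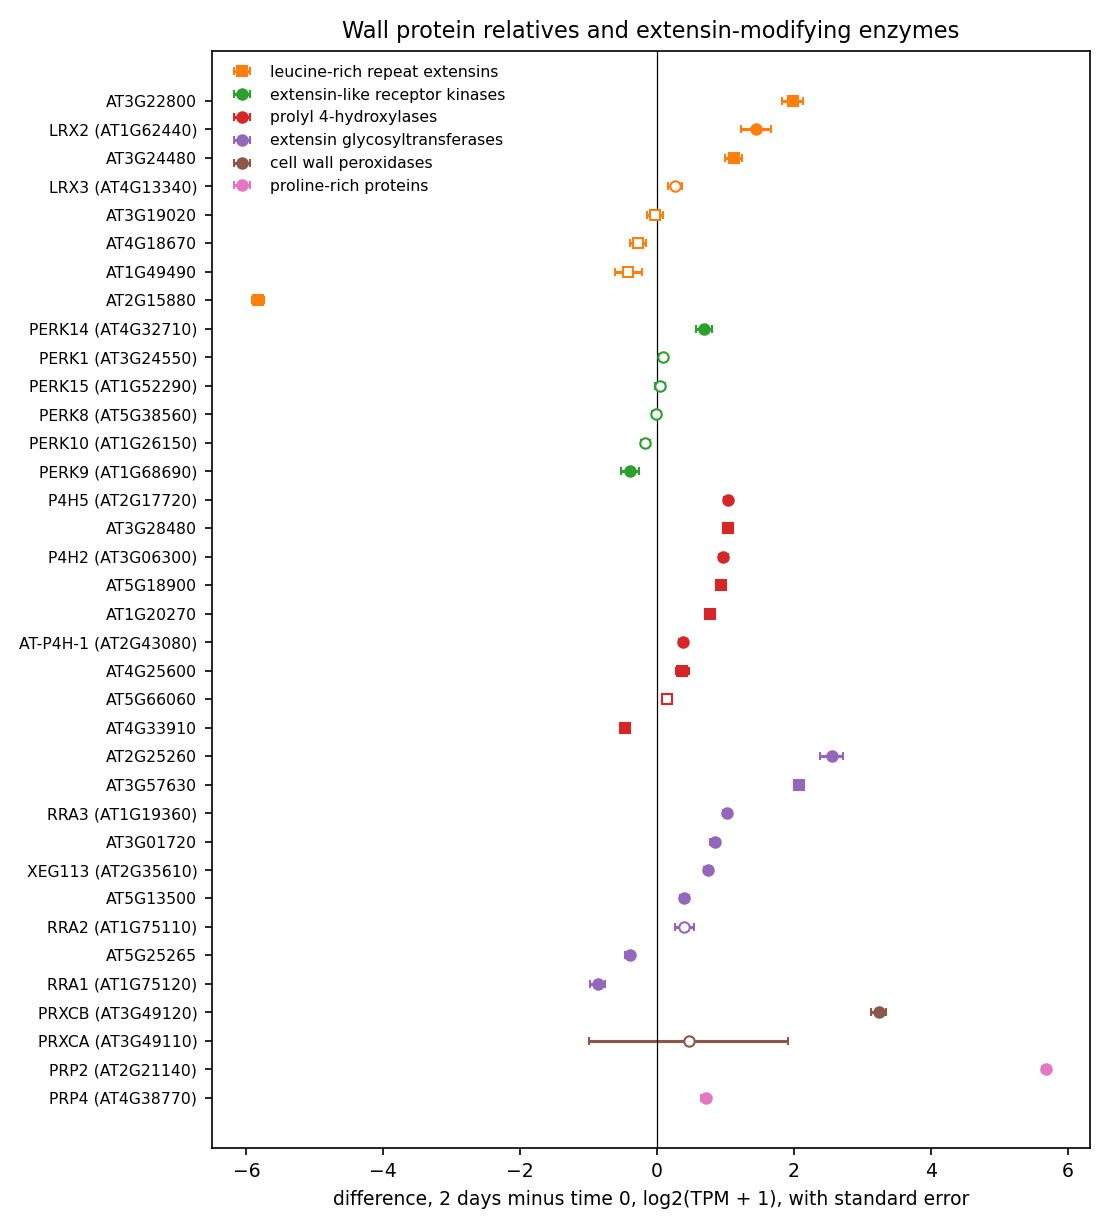
Difference between 2 days and time 0 on the log2(TPM + 1) scale with its standard error, for the 36 tested loci of the related lists; colours mark the lists, circles are loci annotated in the class and squares loci annotated only in a broader family, filled points passed limma's test and open points did not. PRP2 and PRXCB lie furthest to the right at 5.68 and 3.24, and AT2G15880 furthest to the left at -5.83.

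Of the cell wall peroxidases on the list, PRXCB (AT3G49120), also called PRX34, rose to 755.2 and 609.87 TPM in the 2-day libraries, against 72.1 and 70.15 TPM in the time 0 libraries (limma adjusted p = 1.86e-05). Its near copy PRXCA (AT3G49110) stood at 40.43 and 0.7 TPM in the 2-day libraries, against 5.34 and 4.91 TPM in the time 0 libraries, so its 2-day values lie on both sides of time 0. These genes share 6.7% and 6.5% of their windows, which makes the division of reads between them uncertain. Their summed TPM was 795.63 and 610.57 in the 2-day libraries, against 77.44 and 75.06 in the time 0 libraries. The list held 2 more loci, annotated only as peroxidase superfamily, and neither reached the expression limit. AT1G44970 stood at 1.88 and 0.21 TPM in the 2-day libraries, against 0.02 TPM and 0 in the time 0 libraries. AT4G16270 reached at most 0.18 TPM. The proline-rich proteins, another class of wall structural protein, were higher in 2 of 2 tested members, against 39.2% of all tested genes. PRP2 (AT2G21140) rose to 1376.54 and 1466.13 TPM in the 2-day libraries, against 26.39 and 27.04 TPM in the time 0 libraries. PRP4 (AT4G38770), abundant in both groups and overlapped on the opposite strand in 12.1% of its windows, rose to 2308 ± 118 TPM at 2 days, against 1413 ± 43.7 TPM at time 0. PRP1 and PRP3, which are known from roots, reached at most 0.18 TPM.

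Marker lists of cell types in the sampled region had lower summed levels at 2 days, while 5 of their 15 tested genes did not pass the test. All 5 mesophyll markers were detected in every library, and their summed TPM was 2993.58 and 3283.8 in the 2-day libraries, against 29732.58 and 28134.87 in the time 0 libraries, with 5 of 5 lower, against 29.5% of all tested genes. All 5 encode photosynthesis proteins, and only the 2-day explants were kept in darkness. Fewer mesophyll cells and less of these transcripts per cell therefore cannot be told apart. The 4 epidermis markers summed to 358.17 and 308.89 TPM in the 2-day libraries, against 629.06 and 610.31 TPM in the time 0 libraries. Of them 2 were lower (against 29.5% of all tested genes), ATML1 and PDF1, with log2 differences of -1.63 and -6.11. The other 2, PDF2 and KCS10, each at -0.18, did not pass the test. The 6 vascular markers summed to 265.98 and 265.9 TPM in the 2-day libraries, against 418.38 and 415.65 TPM in the time 0 libraries. Of these 3 were lower (against 29.5% of all tested genes) and 3 did not pass (SUC2, APL and IRX3, whose log2 differences were 0.12, 0.11 and 0.14). TPM is a share of the whole, so each value depends on the other transcripts. When organelle genes and the top 100 genes were taken out of the total, the log2 differences of EXT3, EXT4 and AT2G43150 were 10.31, 9.68 and 4.01. The part of cell makeup in the extensin levels was not tested.

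The 7 root hair markers summed to 2.17 and 3.77 TPM in the 2-day libraries and were listed at 0 in both time 0 libraries. The sum came almost wholly from the transcription factors RHD6 (AT1G66470), at 0.79 and 2.25 TPM in the 2-day libraries, and RSL2 (AT4G33880), at 1.38 and 1.45 TPM. The expansins EXPA7 and EXPA18, the COBRA-like gene SHV2 and the regulators RSL1 and RSL4 stayed at or below 0.03 TPM in all 4 libraries. The low extensins, EXPA7, EXPA18, SHV2, RSL1 and RSL4 were thus all near 0, whereas RHD6 and RSL2 reached 2.25 and 1.45 TPM. EXT3, EXT4 and AT2G43150 were among the abundant transcripts of the 2-day libraries. Not every gene linked to root hairs was low. P4H5, known from extensins of root hairs, stood at 71.49 and 68.78 TPM in the 2-day libraries, against 32.84 and 34.55 TPM at time 0. A link between root hair identity and the extensin levels was not tested.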

How the data were processed

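RNA was sequenced from the wounded region of leaf explants in 2 libraries per group. The titles give each library its group and number. The authors deposited 1 table of TPM per gene, and RSEM 1.3.2, STAR 2.7.2b, Trim Galore 0.5.0 and the build TAIR10 are named, per the submitters' processing notes. RSEM divides reads that fit several genes. Depth is unknown, so no counting interval or detection limit is given.

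Genes averaging 1 TPM or more were fitted as log2(TPM + 1) with limma 3.58.1 (R 4.3.3, mean-variance trend, no block), and p-values were adjusted by Benjamini-Hochberg over 19078 genes. All log2 differences use this scale, on which changes of low genes are understated. The fit was also run on simulated data, in which far fewer genes changed than were called here, so no error rate is read from that run. Symbols and products came from the RefSeq annotation of TAIR10.1, in which 37390 identifiers occur. Because the authors' build is TAIR10, no coordinates are given. Shared 50-base windows, codon counts and printed stretches came from its spliced sequences by locus (Python 3.11.15). Figures used matplotlib 3.10.9.

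The 10 loci and the lists were chosen with earlier results of these data known. Named genes are all 10 loci, genes of the lists, at least the called ones with the largest differences, and the 3 nearest genes of EXT3 and EXT4. For 20 of 87 list genes the annotation does not give the class. They are named by locus alone, and counts are given with and without them. The planned search of promoters and protein tables was not run, since those tables were not used here. Alternatives were other pseudocounts, filters and scalings, a replicate block, leaving out each library and, added after seeing the data, averaging the time 0 libraries.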

Additional observations from a re-analysis of the deposited data

How the results depend on the processing

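EXT3, EXT4 and AT2G43150 were chosen from this contrast, so their calls show nothing about stability. Without a filter the fit called 6 of the 10 loci in place of 3, beside 7960 of 25387 genes called higher, and nothing is read from that count. With a pseudocount of 0.1 the log2 difference was 11.02 for EXT3 and 10.08 for EXT4, and with a pseudocount of 5 it was 8.77 and 8.73, by the construction of that scale. Leaving out each library, where the lone library of a group is assumed to vary like the other group, gave 10.09 to 10.43 for EXT3, 9.44 to 9.99 for EXT4 and 3.93 to 4.32 for AT2G43150. Over all genes, 5773 to 7118 were higher and 4021 to 5572 lower without a library.

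Labels do not pair the libraries across groups, and deviations of same-numbered libraries did not go together (r = -0.07 across genes). With the replicate block 7101 genes were higher and 5283 lower, the EXT3 difference was 10.26, and LRX3 passed (adjusted p = 0.0357, with 0.0126 to 0.281 over its alternatives).

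Over every listed locus, a choice made after seeing the data, 20 were higher and 5 lower, against 13 and 3 over the loci annotated in the class. In that smaller set the 3 lower calls became 5 without 2-day replicate 1 and 1 without time 0 replicate 2, a range of 1 to 5. The PERK9 call did not hold at pseudocount 0.1 (adjusted p = 0.0508), without a filter (0.096), with time 0 averaged (0.169) and without 2-day replicate 2, time 0 replicate 1 or time 0 replicate 2 (0.0999 to 0.203). AT4G25600 was lost after quantile normalization (adjusted p = 0.134), after rescaling (0.0688), with time 0 averaged (0.109) and without 2-day replicate 2, time 0 replicate 1 or time 0 replicate 2 (0.0684 to 0.129). AT5G25265 was lost without time 0 replicate 2 (adjusted p = 0.0543). PRXCA was decided by 1 library, at -1.85 without 2-day replicate 1 and 2.76 without 2-day replicate 2. RRA2 passed without 2-day replicate 1 (adjusted p = 0.0435) and without 2-day replicate 2 (0.0157), with 0.0157 to 0.6 over its alternatives. The causes were not tested.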
